A study of Mus musculus with 6 samples.

Results

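Bone cells pass small molecules to each other and sense fluid flow and strain through channels in their membranes, and 10 genes for such channels were followed here by name: *Gja1*, *Gjc1*, *Panx1*, *Panx3*, *Piezo1*, *Piezo2*, *Kcnk2*, *Trpv4*, *P2rx7* and *Pkd1*. Each was taken as the feature of that gene name in the 6 deposited tables, which hold 48733 named genes, and 9 of the 10 were found. *Pkd1* carries no named feature, and the unnamed feature over its position is described apart from the others. The libraries were made from femora and from cultured osteoblasts of CC016/GeniUnc mice, an inbred Collaborative Cross strain, with 3 libraries labelled bone and 3 labelled osteoblasts. Bone was the femur after the marrow had been spun out. Osteoblasts were grown from adherent marrow cells, which were not sorted, and were differentiated over 8 days with dexamethasone at 10 nM, beta-glycerophosphate at 10 mM and ascorbic acid at 50 µg/ml. The mice carried no engineered allele, and the sources used here give no age. The paper describes femora and marrow of the same mice as the source of both labels, so these are not independent sets of animals. The labels do not tie a bone library to a culture from the same mouse. The main comparison of labels below therefore treated the libraries as unpaired.

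Connexins assemble into gap junctions, which join the cytoplasm of neighbouring cells, and connexin 43 (*Gja1*) is the main connexin of osteoblasts and osteocytes. Pannexins form large pores in the membrane of a single cell and release ATP, which opens P2X receptors such as the product of *P2rx7*. Piezo1 and Piezo2, TRPV4, the potassium channel TREK-1 (*Kcnk2*) and polycystin-1 (*Pkd1*) take part in the response of cells to stretch, flow or swelling, and Piezo1 in osteoblast lineage cells is known for its part in the skeleton's response to load.

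The libraries did not part by label in their blood genes. The feature named *Hbb-bt*, a hemoglobin gene, was above 1000 FPKM in bone replicate 3 and in osteoblasts replicates 2 and 3, while bone replicates 1 and 2 and osteoblasts replicate 1 stayed at or below 7.05 FPKM. FPKM is the number of aligned fragments of a gene scaled to its length and to the library. The former 3 libraries are called hemoglobin-rich and the latter 3 hemoglobin-poor below. These names describe the libraries, no library was moved to another group, and no test was run between the kinds. The feature named *Hbb-bt* spans 4 RefSeq genes, *Hbb-bt*, *Hbb-bs*, *Gm15115* and *Hbb-bh3*, so its value is not that of *Hbb-bt* alone. Whether labels were exchanged between libraries was not tested, and every mean, difference and count by label below holds for the labels as deposited. Summed FPKM of 6 named erythroid markers of a list of 10 ran from 3.53 to 7.29 in the hemoglobin-poor libraries and from 35889 to 50387 in the hemoglobin-rich ones, and *Epb42* was listed at 0 in each of the former. All 8 named neutrophil markers and all 7 named markers of dividing cells were also higher in each hemoglobin-rich library. Of 7 named osteocyte markers, 2 were higher in each hemoglobin-poor library, with *Dmp1* at 50.04 to 127 FPKM against 22.5 to 24.2, and 1 was lower, with *Sost* at no more than 0.198 FPKM against 15.8 to 22.7. Depth, implied by the ratio of coverage to FPKM, was 13565295 to 22583778 aligned read pairs, at which 3 pairs on a transcript of 1 kb give 0.133 to 0.221 FPKM (counting error only). Unnamed features took 71.5% of the summed FPKM in bone replicate 2 and 65.0% in osteoblasts replicate 1, against 27.4 to 30.7% in the other 4 libraries, and values rescaled to named genes are given below.

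The members whose values were high in the same libraries were looked up in RefSeq (GRCm38.p6, the build of the deposited coordinates). Promoter windows were taken from it for 7 of the 10 members. The 250 bases before the start are printed 5′ to 3′ on the gene's strand for *Gja1* (chr10:56377050-56377299, plus strand), *Piezo1* (chr8:122551330-122551579, minus strand) and *Trpv4* (chr5:114658422-114658671, minus strand), which had their 3 highest FPKM in the same libraries, and for *Panx1* (chr9:15045479-15045728, minus strand), which did not. *Kcnk2* had its 3 highest FPKM in those libraries too, but its 4 windows lie at different starts and are not printed. So did *Panx3*, for which no window was taken. Capitals mark matches, on either strand and not overlapping each other, to 6 motifs. The GC box was searched as GGGCGG, the motif of TATA-binding protein as TATAAA and that of NF-Y as CCAAT. The motif of AP-1 was searched as TGANTCA, that of TEAD factors as GGAATG and that of RUNX factors as TGTGGT.
Gja1: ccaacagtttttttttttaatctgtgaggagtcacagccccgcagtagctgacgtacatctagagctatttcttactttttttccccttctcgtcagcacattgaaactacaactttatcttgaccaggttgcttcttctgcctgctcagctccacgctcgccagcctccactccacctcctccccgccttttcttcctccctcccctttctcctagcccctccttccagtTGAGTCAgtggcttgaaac
Piezo1: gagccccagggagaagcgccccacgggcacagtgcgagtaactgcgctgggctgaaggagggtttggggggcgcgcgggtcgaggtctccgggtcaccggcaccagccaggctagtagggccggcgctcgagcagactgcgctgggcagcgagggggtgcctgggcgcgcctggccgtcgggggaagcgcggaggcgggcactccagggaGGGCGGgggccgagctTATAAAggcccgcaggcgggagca
Trpv4: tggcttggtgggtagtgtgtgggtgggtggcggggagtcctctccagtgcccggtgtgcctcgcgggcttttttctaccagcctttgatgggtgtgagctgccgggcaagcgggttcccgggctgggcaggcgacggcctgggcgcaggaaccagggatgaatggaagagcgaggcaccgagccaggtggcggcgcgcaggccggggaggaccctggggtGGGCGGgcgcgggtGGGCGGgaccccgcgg
Panx1: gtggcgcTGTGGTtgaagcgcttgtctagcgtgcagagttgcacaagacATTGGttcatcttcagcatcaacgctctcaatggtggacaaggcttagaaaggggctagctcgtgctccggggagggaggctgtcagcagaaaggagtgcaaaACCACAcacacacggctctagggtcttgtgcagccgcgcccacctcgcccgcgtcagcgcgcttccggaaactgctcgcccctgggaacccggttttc
The *Gja1* window held 1 AP-1 match, which 6.75% of the 32851 RefSeq windows of this length hold. *Piezo1* held 1 GC box and 1 match to TATAAA, found in 32.7% and 12.4% of windows, and *Trpv4* held 2 GC boxes. *Panx1* held 2 RUNX matches and 1 match to CCAAT, found in 14.05% and 33.8% of windows. The 4 windows also differed in GC content, at 50.0% for *Gja1*, 74.0% for *Piezo1*, 72.0% for *Trpv4* and 59.6% for *Panx1*, with a median of 52.4% over all windows. Of the 4 *Kcnk2* windows, 1 held a GC box and a match to CCAAT, 1 held an AP-1 match, 1 held a TEAD match and 1 held none. The matches are descriptions of these letters, and binding was not measured.

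The gap junction genes were led by *Gja1* (Chr. 10, 56377330 to 56402513, plus strand), which had the highest FPKM of the 9 named members in each of the 6 libraries, while on coverage divided by depth it came after *Piezo1*. It gave 72.2, 33.1 and 24.4 FPKM for bone and 52.2, 24.0 and 25.8 FPKM for osteoblasts, where values listed by label stand in the order of replicates 1, 2 and 3 here and below. The 3 hemoglobin-rich libraries lay close together and below the other 3, and the labels overlapped. *Gja1* was above 83.8 to 94.7% of the genes with at least 1 FPKM in the same library. The mean was 43.2 ± 25.5 FPKM (SD, n = 3) under the label bone and 34.0 ± 15.8 FPKM (SD, n = 3) under the label osteoblasts. On the scale of log2(FPKM + 1) the difference, osteoblasts minus bone, was -0.28 (standard error 0.58, limma adjusted p = 0.999), smaller than the spread between replicates. A lncRNA gene, *Gm36460*, overlaps the feature, and the library kit does not mark strand.

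*Gjc1* encodes connexin 45, whose channels open and close differently from those of connexin 43 (Chr. 11, 102799579 to 102819700, minus strand). It gave 2.94, 0.943 and 1.36 FPKM for bone and 1.296, 1.94 and 1.21 FPKM for osteoblasts. Neither the labels nor the *Hbb-bt* levels parted these values. Within a library *Gjc1* was 0.0248 to 0.0807 times *Gja1* in FPKM, with a ratio of 0.0248 to 0.0407 in the hemoglobin-poor libraries and 0.0469 to 0.0807 in the hemoglobin-rich ones. The difference between the labels was -0.09 on the log2 scale (standard error 0.44, limma adjusted p = 0.999).

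The pannexin genes did not share a pattern. *Panx3*, a pannexin of osteoblasts and of hypertrophic chondrocytes (Chr. 9, 37659902 to 37669235, minus strand), gave 16.6, 9.81 and 3.69 FPKM for bone and 17.0, 3.89 and 3.87 FPKM for osteoblasts. Its 3 hemoglobin-rich values lay within 3.69 to 3.89 FPKM, below the lowest of the other libraries. *Panx1*, the widely expressed pannexin (Chr. 9, 15002128 to 15045478, minus strand), gave 4.76, 3.01 and 3.08 FPKM for bone and 1.51, 5.55 and 3.08 FPKM for osteoblasts. Its lowest and highest values were both under the label osteoblasts. The ratio of *Panx3* to *Panx1*, which does not depend on the scaling of a library, was 3.26 to 11.3 in the hemoglobin-poor libraries and 0.701 to 1.26 in the hemoglobin-rich ones. Between the labels *Panx3* differed by -0.35 (standard error 0.68) and *Panx1* by -0.17 (standard error 0.47) on the log2 scale (limma adjusted p = 0.999 for each). All 6 named chondrocyte markers went the other way from *Panx3*, with summed FPKM of 12.4 to 41.1 in the hemoglobin-poor libraries and 257 to 478 in the hemoglobin-rich ones, and *Matn3* and *Ihh* were listed at 0 in osteoblasts replicate 1. Summed FPKM of 7 named osteoblast markers overlapped, at 5258 to 8488 in the hemoglobin-poor and 5566 to 6599 in the hemoglobin-rich libraries. That list was split, with 2 markers higher in each hemoglobin-poor library and 1 in each hemoglobin-rich one. The 2 were *Ibsp* (986 to 1278 against 43.1 to 91.3 FPKM) and *Alpl*, and the 1 was *Bglap2* (1641 to 1959 against 264 to 513 FPKM). The 7 named osteocyte markers summed to 62.6 to 146 FPKM in the hemoglobin-poor and 52.0 to 57.9 FPKM in the hemoglobin-rich libraries. The part of these cells in the *Panx3* values was not tested, and in tissue RNA fewer cells of a type and less RNA per cell cannot be told apart.

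**Figure D1:**
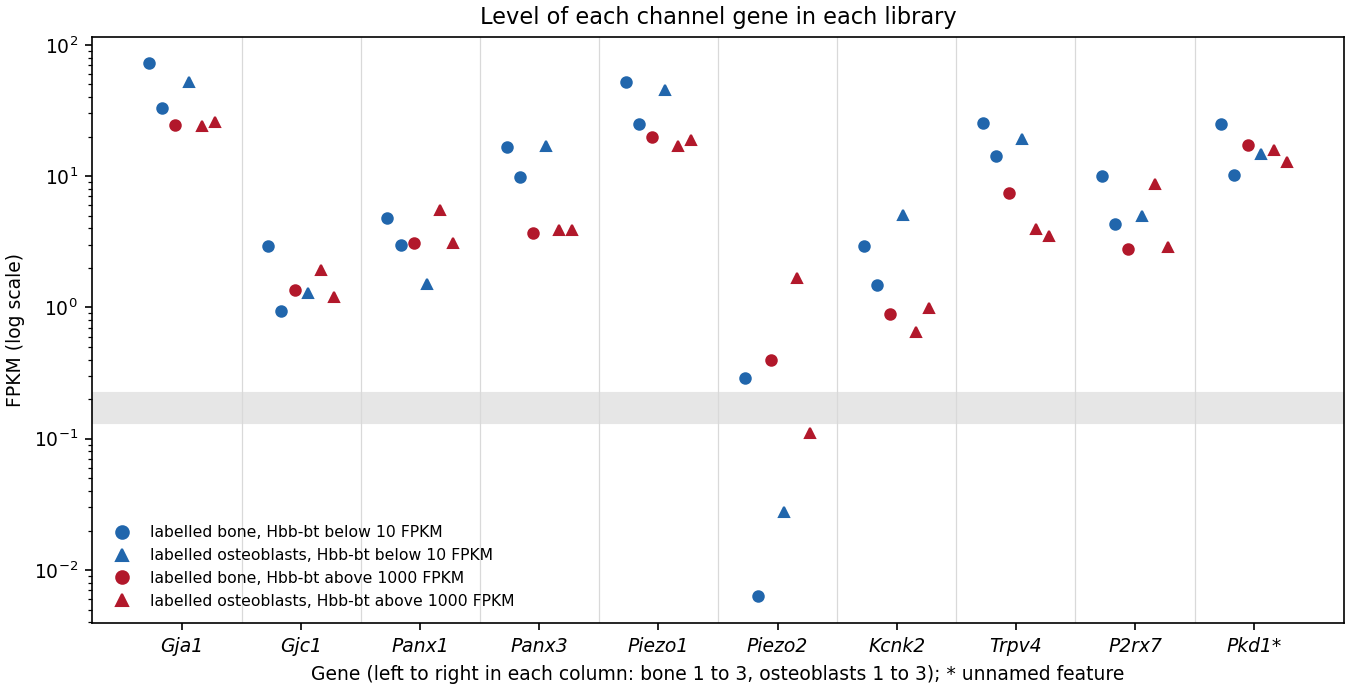
FPKM of each channel gene (log axis), with 1 point per library, circles for libraries labelled bone and triangles for those labelled osteoblasts, blue for *Hbb-bt* at most 7.05 FPKM and red for *Hbb-bt* above 1000 FPKM; Pkd1* is the unnamed feature over *Pkd1*, and the grey band is 0.133 to 0.221 FPKM, which 3 read pairs on 1 kb give. The blue points of *Gja1*, *Panx3*, *Piezo1*, *Kcnk2* and *Trpv4* all lie above the red ones, while circles and triangles overlap for every gene.

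Among the mechanosensitive channels, *Piezo1* had the second highest FPKM of the named members in each of the 6 libraries (Chr. 8, 122481698 to 122551329, minus strand). It gave 52.5, 25.1 and 20.02 FPKM for bone and 45.6, 16.9 and 18.8 FPKM for osteoblasts. The 3 hemoglobin-rich libraries again held the lowest values. The ratio of *Gja1* to *Piezo1* was steady, between 1.15 and 1.42 in the 6 libraries, and of the 12 ratios computed it had the narrowest range, with the highest 1.24 times the lowest. *Piezo1* had a mean of 32.6 ± 17.5 FPKM (SD, n = 3) under the label bone and 27.1 ± 16.0 FPKM (SD, n = 3) under the label osteoblasts, a log2 difference of -0.28 (standard error 0.58, limma adjusted p = 0.999). RefSeq lists *Ctu2*, a protein-coding gene, and the small nuclear RNA gene *Gm26497* across part of the same interval.

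*Piezo2*, best known from touch-sensing neurons and Merkel cells, was near the limit of detection (Chr. 18, minus strand). It gave 0.288, 0.0063 and 0.400 FPKM for bone and 0.0277, 1.66 and 0.1101 FPKM for osteoblasts. A single library, osteoblasts replicate 2, exceeded 1 FPKM. In that library the coverage of the feature, the mean number of reads over its bases, was 21.3% of the FPKM times the implied depth, against 64.9% in each of the other 5. Divided by the implied depth instead, its coverage was 0.354 reads per base and Gb in osteoblasts replicate 2 and 0.260 in bone replicate 3. *Piezo2* did not reach the mean of 1 FPKM needed for limma, and its labels could not be told apart in an exact permutation test of mean log2(FPKM + 1) (two-sided, p = 0.8, where 3 libraries against 3 cannot give less than 0.1). The Schwann cell and neuron markers overlapped between the kinds of library, with summed FPKM of 11.9 to 30.6 in the hemoglobin-poor and 22.9 to 26.1 in the hemoglobin-rich libraries.

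*Trpv4* encodes a calcium-permeable channel opened by swelling, warmth and shear, and mutations in the human gene cause skeletal dysplasias (Chr. 5, 114622152 to 114658421, minus strand). It gave 25.2, 14.1 and 7.49 FPKM for bone and 19.1, 3.97 and 3.52 FPKM for osteoblasts. It ranged more widely than *Piezo1*, with the highest value 7.16 times the lowest against 3.10 times for *Piezo1*. Its difference between the labels, -0.97 on the log2 scale, was the largest in size of the 8 members tested but was not called (standard error 0.68, limma adjusted p = 0.999). The ratio of *Trpv4* to *Piezo1* was 0.418 to 0.563 in the hemoglobin-poor libraries, 0.374 in bone replicate 3, and 0.235 and 0.187 in osteoblasts replicates 2 and 3. Leaving out each library in turn moved the *Trpv4* difference between -1.66, without osteoblasts replicate 1, and -0.56, without bone replicate 1.

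*Kcnk2* encodes TREK-1, a potassium channel opened by membrane stretch (Chr. 1, 189207930 to 189402273, minus strand). It gave 2.95, 1.48 and 0.887 FPKM for bone and 5.10, 0.649 and 0.991 FPKM for osteoblasts. The 3 hemoglobin-rich libraries were each below 1 FPKM and the other 3 above it. The difference between the labels was 0.04 on the log2 scale (standard error 0.59, limma adjusted p = 0.999). Its coverage was low throughout, at most 0.353 reads per base, which is 3.40 to 5.95% of the FPKM times the implied depth, the smallest share of the 9 named members. RefSeq lists the lncRNA *A430027H14Rik* and the pseudogene *Pdcd5-ps* within the interval, and reads from an overlapping gene cannot be told apart without strand.

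No named feature holds *Pkd1*, which encodes polycystin-1, a large membrane protein that osteoblasts and osteocytes need for their response to load. RefSeq places it on Chr. 17 from 24548689 to 24596514, and an unnamed feature of the plus strand runs from 24548848 to 24596514. That feature also meets a lncRNA gene and the end of *Tsc2*, so its values are not those of *Pkd1* alone. It gave 24.9, 10.2 and 17.2 FPKM for bone and 14.6, 15.8 and 12.8 FPKM for osteoblasts. The values overlapped both by label and by *Hbb-bt* level, and the labels could not be told apart in an exact permutation test (two-sided, p = 0.7). *Pkd2*, named here because polycystin-2 is the channel partner of polycystin-1, gave 20.03, 10.5 and 2.75 FPKM for bone and 9.32, 2.88 and 2.63 FPKM for osteoblasts. Unlike the unnamed feature, *Pkd2* was lower in each hemoglobin-rich library than in any hemoglobin-poor one, and its difference between the labels was -0.88 on the log2 scale (standard error 0.70, limma adjusted p = 0.999).

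*P2rx7*, the ATP-gated receptor that is abundant in macrophages and osteoclasts and also acts in osteoblasts (Chr. 5, 122643911 to 122691432, plus strand), gave 9.94, 4.33 and 2.76 FPKM for bone and 4.98, 8.78 and 2.91 FPKM for osteoblasts. The high value in osteoblasts replicate 2 set it apart from the other hemoglobin-rich libraries. In that library the coverage was 16.8% of the FPKM times the implied depth, against 32.2 to 49.8% in the other 5. Taken as coverage divided by depth, *P2rx7* measured 3.20, 2.16 and 1.18 reads per base and Gb for bone and 2.45, 1.48 and 1.18 for osteoblasts. On that scale the 3 hemoglobin-rich libraries held the lowest values. All 9 named macrophage markers were likewise higher in each hemoglobin-poor library, with summed FPKM of 5590 to 10150 against 1692 to 2089, and none was listed at 0. The sum of the osteoclast markers went the other way, at 50.0 to 327 and 712 to 810 FPKM, but the list was split. In it 4 of 8 were higher in each hemoglobin-rich library, among them *Acp5* and *Mmp9*, and the rest overlapped. *Ctsk* was 29.5 to 137 FPKM in the hemoglobin-poor and 116 to 149 in the hemoglobin-rich libraries, and *Calcr* was 0.055 to 1.57 and 0 to 0.095. The part of macrophages and osteoclasts in the *P2rx7* values was not tested. The labels differed by 0.02 on the log2 scale (standard error 0.54, limma adjusted p = 0.999).

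**Figure D2:**
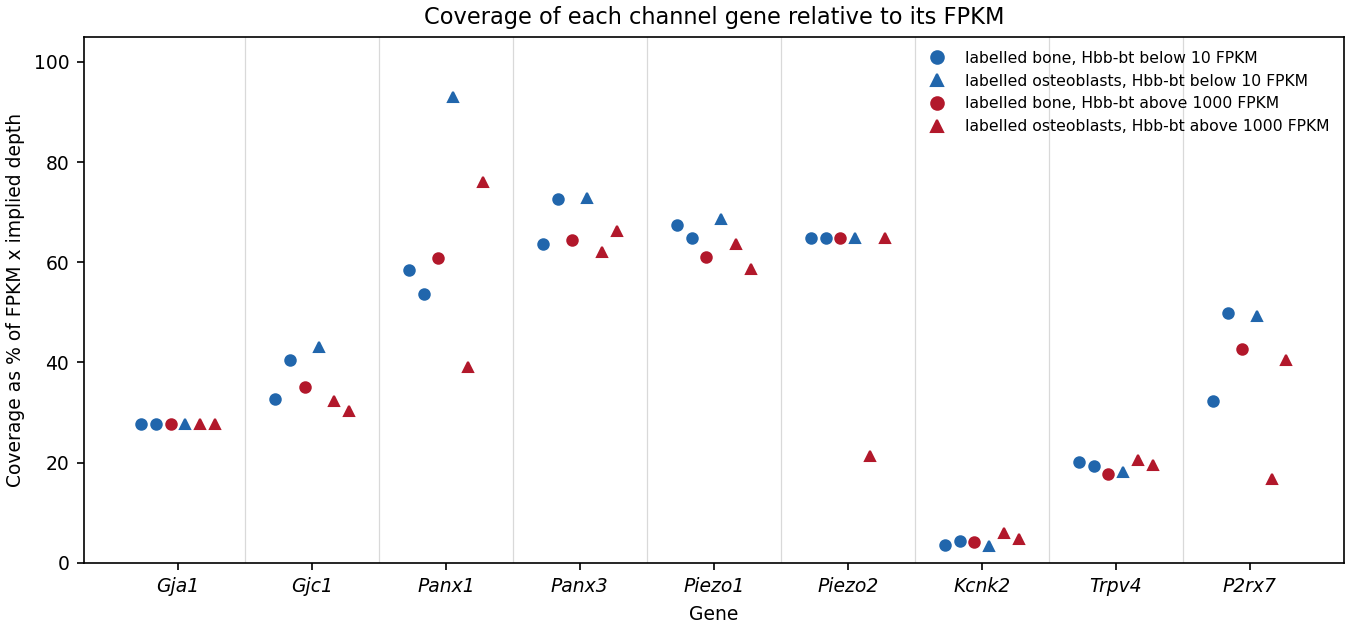
Coverage of each named channel gene as a percentage of its FPKM times the implied depth of the library, with 1 point per library and colours and shapes for label and *Hbb-bt* level. *Gja1* lay at 27.7% in all 6 libraries, *Kcnk2* at 3.40 to 5.95%, and osteoblasts replicate 2 stood below the other libraries for *Panx1*, *Piezo2* and *P2rx7*.

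Coverage and FPKM described some members differently. Coverage was set against the FPKM times the implied depth of the library, and for the named members it was 3.40 to 92.9% of that product. The share was the same in every library for *Gja1* (27.7%) and narrow for *Trpv4* (17.8 to 20.4%), *Piezo1* (58.6 to 68.6%) and *Panx3* (62.0 to 72.9%). In percentage points it varied most for *Panx1*, between 39.0% in osteoblasts replicate 2 and 92.9% in osteoblasts replicate 1. FPKM of *Panx1* in those libraries differed by 3.68 times, and coverage per Gb, at 2.16 and 1.40 reads per base, by less.

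The question of the design, bone against osteoblasts, was put to all 12112 genes with a mean of at least 1 FPKM. Under the label osteoblasts limma found 0 genes higher and 0 lower (adjusted p under 0.05, Benjamini-Hochberg), which is 0% of the genes in each direction, and 17 genes had an unadjusted p under 0.05. Without osteoblasts replicate 1 there were 262 higher and 38 lower, and without bone replicate 3 there were 66 and 11, again with 0 members among them. Each of these libraries differs in *Hbb-bt* level from the others of its label. Without it, label and *Hbb-bt* level run closer together, and their parts in these counts cannot be told apart. None of the 8 members that reached the filter was called from all 6 libraries, and their log2 differences ran from -0.97 to 0.04, beside a median of 0.12 over all genes tested. The values of each of the 9 named members, with *Piezo2* below the filter, overlapped between the labels. So did those of most genes, since only 0.916% of all genes tested had no overlap. Without bone replicate 1 the differences of *Gja1* (0.16), *Gjc1* (0.20), *Panx1* (0.0046), *Panx3* (0.083) and *Piezo1* (0.12) turned positive. *Panx1* also turned positive without osteoblasts replicate 1 (0.18).

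**Figure D3:**
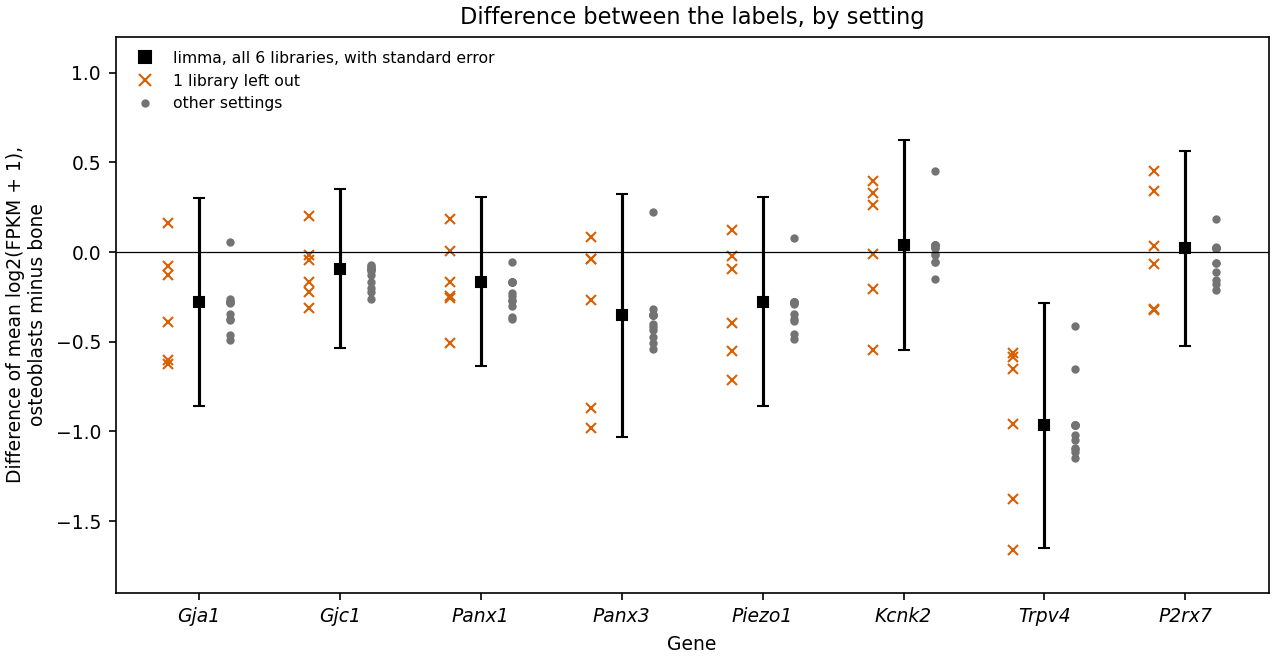
Difference of mean log2(FPKM + 1), osteoblasts minus bone, for the 8 members tested, with limma's value and standard error from all 6 libraries (black), values with 1 library left out (orange crosses) and values under the other settings (grey points). The values of *Trpv4* stay below 0 throughout, between -1.66 and -0.42, and those of the other genes fall on both sides of 0, except *Gjc1* and *Panx1* under the grey settings.

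By *Hbb-bt* level, *Gja1*, *Panx3*, *Piezo1*, *Kcnk2* and *Trpv4* had every hemoglobin-poor library above every hemoglobin-rich one. These are 5 of the 8 members that reached the filter, and 16.9% of all genes tested had this arrangement, while 38.4% had the opposite one, which 0 members had. When the libraries were rescaled to named genes other than hemoglobin, mitochondrial and small RNA genes, *Gjc1* and *P2rx7* joined the 5, and the share over all genes rose to 41.9%. For *P2rx7* this rested on 6.97 against 6.89 rescaled FPKM in the libraries nearest to each other. On that scale *Gja1* was 56.5 to 78.0 in the hemoglobin-poor and 18.8 to 21.3 in the hemoglobin-rich libraries, and *Piezo1* was 42.9 to 63.8 and 13.3 to 15.5. *Panx3* was 16.7 to 23.8 and 2.86 to 3.20, and *Trpv4* was 24.1 to 27.3 and 2.91 to 5.81. Taken as coverage per Gb, 6 members, the 5 and *P2rx7*, had the arrangement, beside 19.4% of all genes. *Panx1* and *Piezo2* overlapped on each of these scales.

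**Figure D4:**
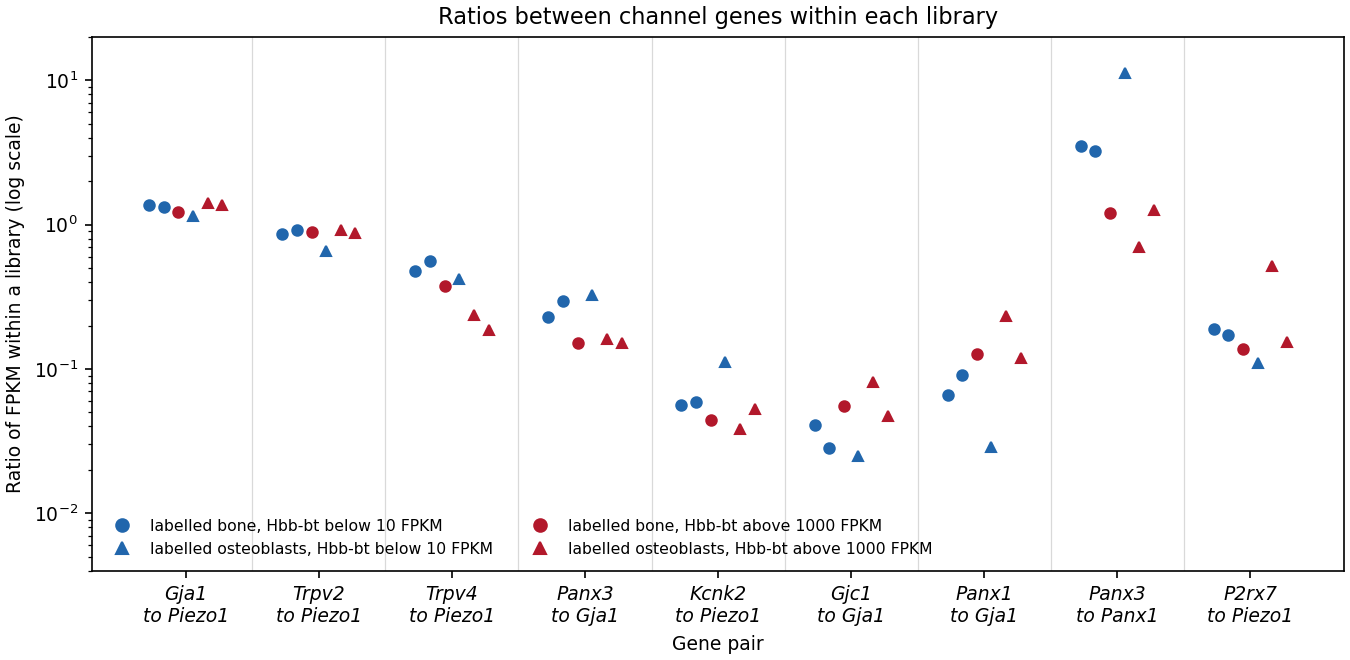
Ratios of FPKM between channel genes within each library (log axis), which do not depend on scaling, with colours and shapes for label and *Hbb-bt* level. *Gja1* to *Piezo1* stays between 1.15 and 1.42, while *Panx3* to *Panx1* runs from 0.701 to 11.3 with the blue points above the red ones.

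The order of the members depended on the measure. By FPKM *Gja1* and *Piezo1* were first and second in each library, although the spread of each over libraries was wider than the gap between their means. The third place was held by *Trpv4* in all bone libraries and osteoblasts replicate 1, by *P2rx7* in osteoblasts replicate 2 (8.78 FPKM), and by *Panx3* in osteoblasts replicate 3, at 3.87 FPKM beside 3.52 FPKM for *Trpv4*. *Gjc1* was seventh or eighth by FPKM in every library, and *Piezo2* was last in 5 of 6. By coverage per Gb *Piezo1* was first and *Gja1* second in all 6 libraries, at 10.8 to 35.4 and 6.65 to 20.03 reads per base and Gb. *Panx3* held the third place in all 6 on that scale, and *P2rx7* in osteoblasts replicate 2, at 1.48, lay below *Panx3* (2.41) and *Panx1* (2.16).

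Across the 6 libraries, the genes most like each member by Pearson's r of log2(FPKM + 1) were *Ghdc*, *Zfyve9* and *Tiam2* for *Gja1* (r = 0.998 each) and *Plxna2*, *Prag1* and *Map7d1* for *Piezo1* (r = 0.997 to 0.999). *Pdk4*, *Man1c1* and *Tnfrsf10b* were nearest to *Panx3* (r = 0.997 to 0.999), *Sestd1*, *Palld* and *Ahcyl1* to *Kcnk2* (r = 0.987 to 0.996), and *Tnfrsf12a*, *Ccl4* and *Kif5c* to *Trpv4* (r = 0.993 to 0.998). For *Gjc1* they were *Acaca*, *Ppp1r2-ps2* and *Cyb561d2* (r = 0.987 to 0.994), for *Panx1* *Kbtbd4*, *Tmem41b* and *Plcb1* (r = 0.965 to 0.977), and for *P2rx7* *Gk*, *Borcs7* and *Aif1* (r = 0.975 to 0.984). Many other genes came near to some members. *Gja1* had 635 of 12111 genes above r = 0.95 and *Piezo1* 383, whereas *Panx1* had 4 and *P2rx7* 9. Between members, r was 0.99 for *Gja1* and *Piezo1* and -0.16 for *Gja1* and *Panx1*. These are descriptions over 6 libraries, in which genes of 1 library share its depth and composition.

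The other genes of these pathways were read from 8 lists with 132 genes, of which 120 carry a named feature and 62 reached the filter. Of the 62, limma called 0 higher and 0 lower between the labels, and 1 had an unadjusted p under 0.05. By *Hbb-bt* level, 26 of the 62 were higher in each hemoglobin-poor library and 16 in each hemoglobin-rich one, beside 16.9% and 38.4% of all genes. Rescaled to named genes as above, a choice made after seeing the data, 38 and 12 of the 62 were, beside 41.9% and 24.5% of all genes. Counts and values by list are FPKM as deposited, with the rescaled counts beside them.

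Of 18 other connexins, 6 were listed at 0 in all 6 libraries, and 2 reached the filter. *Gja4*, connexin 37 of the endothelium, was at most 0.324 FPKM in the hemoglobin-poor libraries and 1.63 to 2.10 in the hemoglobin-rich ones, each of which was higher than any of the former, as on the rescaled values. All 7 endothelial markers did the same, with summed FPKM of 0.431 to 5.61 and 95.8 to 111, and *Tek* and *Cldn5* were listed at 0 in bone replicate 2. Their part in *Gja4* was not tested. Its difference between the labels was 0.23 on the log2 scale (standard error 0.60, limma adjusted p = 0.999).

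Of the other large-pore channels, 7 of 13 reached the filter. *Lrrc8a*, the required subunit of the volume-regulated anion channel, was 17.8 to 34.4 FPKM and overlapped between the kinds of library, as did *Vdac1* (22.9 to 53.8) and *Calhm2* (5.29 to 12.95). Rescaled, *Lrrc8a* was 30.4 to 34.1 in the hemoglobin-poor and 22.1 to 26.7 in the hemoglobin-rich libraries, and *Calhm2* also parted that way. *Lrrc8d*, another subunit, was 1.37 to 2.66 FPKM in the hemoglobin-poor and 5.08 to 6.98 FPKM in the hemoglobin-rich libraries. In all 1 of the 7 was higher in each hemoglobin-poor library and 3 in each hemoglobin-rich one (rescaled, 3 and 3), and the median log2 difference between the labels was 0.11. Over all genes tested these shares were 16.9% and 38.4% (rescaled, 41.9% and 24.5%).

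Of 36 other stretch- and swelling-linked cation channels, 13 reached the filter, 5 were higher in each hemoglobin-poor library and 3 in each hemoglobin-rich one (rescaled, 9 and 2), with a median label difference of -0.22. Beside these counts, the shares over all genes tested were 16.9% and 38.4% (rescaled, 41.9% and 24.5%). *Trpv2*, a calcium-permeable channel of the TRPV4 family, followed *Piezo1* closely, at 0.660 to 0.919 times its FPKM. It gave 44.9, 22.9 and 17.9 FPKM for bone and 30.1, 15.6 and 16.4 FPKM for osteoblasts. *Tmem63a*, a channel gated by osmotic stress, had 9.77 to 20.4 FPKM in the hemoglobin-poor and 21.8 to 28.5 FPKM in the hemoglobin-rich libraries, but overlapped on the rescaled values (15.6 to 22.02 and 18.04 to 22.1). *Tmem120a* (11.6 to 24.9), *Tmem87a* (3.76 to 15.6) and *Trpm7* (4.50 to 13.9) overlapped in FPKM, and each was higher in every hemoglobin-poor library when rescaled.

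Of 18 other purinergic receptors, 8 reached the filter. *P2rx4*, an ATP-gated channel, was above *P2rx7* in each library, at 20.8, 11.2 and 11.6 FPKM for bone and 13.3, 10.6 and 12.8 FPKM for osteoblasts. In FPKM it overlapped between the kinds of library, whereas rescaled it was 18.7 to 22.5 in the hemoglobin-poor and 8.34 to 10.6 in the hemoglobin-rich libraries. On both scales the values overlapped for the G protein-coupled receptors *P2ry2* (1.41 to 5.24 FPKM) and *P2ry13* (1.2998 to 3.48 FPKM). In the list 1 gene was higher in each hemoglobin-poor library and 3 in each hemoglobin-rich one (rescaled, 2 and 2), and the median label difference was 0.01. For this list and the next, the shares over all genes tested were 16.9% and 38.4% (rescaled, 41.9% and 24.5%). Among 8 of 12 genes for enzymes of extracellular nucleotides and adenosine, the alkaline phosphatase gene *Alpl* was highest, at 205, 95.4 and 94.1 FPKM for bone and 153, 67.3 and 66.0 FPKM for osteoblasts. *Enpp1*, which makes pyrophosphate from ATP, and *Nt5e*, which makes adenosine, were also higher in each hemoglobin-poor library. *Enpp1* was 6.85 to 21.4 FPKM against 3.55 to 5.66, and *Nt5e* was 10.3 to 16.8 FPKM against 2.60 to 3.76. *Entpd2* (6.64 to 18.6 FPKM) and *Adk* (8.99 to 19.2 FPKM) overlapped, though *Entpd2* was higher in each hemoglobin-poor library when rescaled. In the list 3 of the 8 were higher in each hemoglobin-poor library and 0 in each hemoglobin-rich one (rescaled, 6 and 0), and the median label difference was -0.21.

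Of 8 genes for voltage-gated calcium channels 5 reached the filter, 3 higher in each hemoglobin-poor library and 2 in each hemoglobin-rich one (rescaled, 3 and 1), with a median label difference of -0.32. *Cacna1g*, a T-type channel, was 2.42 to 5.69 FPKM in the former and 10.6 to 14.1 FPKM in the latter. Among 8 of 12 junction partners, 4 were higher in each hemoglobin-poor and 3 in each hemoglobin-rich library (rescaled, 5 and 3), and the median label difference was -0.08. Beside the counts of calcium channels and of junction partners, all genes tested had shares of 16.9% and 38.4% (rescaled, 41.9% and 24.5%). The osteoblast cadherin gene *Cdh11* was 48.8 to 122 FPKM in the hemoglobin-poor and 9.16 to 12.2 FPKM in the hemoglobin-rich libraries, and the N-cadherin gene *Cdh2* was 11.2 to 21.7 and 5.77 to 7.23. *Cav1*, of caveolae, was 7.09 to 17.4 and 4.83 to 6.33. *Ctnnb1*, whose product beta-catenin binds cadherins, overlapped at 78.8 to 155 FPKM but not when rescaled (135 to 198 and 66.02 to 77.4), and *Cnst*, whose product consortin targets connexins to the membrane, was 3.32 to 6.36 FPKM in the hemoglobin-poor and 13.6 to 15.7 FPKM in the hemoglobin-rich libraries.

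Of 11 of 15 load- and YAP-linked transcripts, 9 were higher in each hemoglobin-poor library and 0 in each hemoglobin-rich one (rescaled, 10 and 0). All genes tested had shares of 16.9% and 38.4% (rescaled, 41.9% and 24.5%). *Ctgf* gave 312, 161 and 24.6 FPKM for bone and 147, 25.2 and 26.0 FPKM for osteoblasts. *Cyr61*, like *Ctgf* a target of the co-activator YAP, was 67.8 to 159 FPKM in the hemoglobin-poor and 7.36 to 10.8 FPKM in the hemoglobin-rich libraries. The matricellular gene *Postn* was 141 to 342 and 16.7 to 21.0 FPKM. The co-activator genes *Yap1* and *Wwtr1* were 7.19 to 17.5 and 10.7 to 20.65 FPKM in the hemoglobin-poor libraries and 3.40 to 4.31 and 3.61 to 4.02 FPKM in the hemoglobin-rich ones. Smooth muscle markers, of which 4 of 6 named were higher in each hemoglobin-poor library and 1 in each hemoglobin-rich one, had summed FPKM of 198 to 516 and 28.3 to 84.0, none listed at 0, and their part in these values was not tested. The median log2 difference between the labels was -0.75 over these 11 genes, beside 0.12 over all genes tested.

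*Ankrd1*, a YAP target that is also a gene of striated muscle, was the list gene with an unadjusted p under 0.05 between the labels. It gave 4.14, 2.42 and 6.95 FPKM for bone and 1.43, 0.840 and 0.433 FPKM for osteoblasts, and the labels did not overlap. The difference was -1.48 on the log2 scale (standard error 0.47, limma adjusted p = 0.999). With the *Hbb-bt* level as a term, added after seeing the data, limma found 8 genes to be higher under the label osteoblasts and 8 to be lower, each 0.0661% of the genes, and *Ankrd1* was among the lower (adjusted p = 0.022). That fit leaves 3 residual degrees of freedom, and *Rps12l1*, at 109 FPKM in bone replicate 3 and listed at 0 in the other 5 libraries, was its first call. The difference of *Rps12l1* was -3.39 with a standard error of 0.31, although 1 library alone held the gene. Its standard error thus came from the spread pooled over genes. This fit therefore did not judge *Ankrd1* or its other calls by each gene's own spread. None of the 8 members tested was called by it (limma adjusted p = 1.00 for each). The muscle genes *Xirp1*, *Csrp3*, *Klhl40* and *Ankrd2* were called lower with *Ankrd1*. The 5 named skeletal muscle markers summed to 1176 FPKM in bone replicate 3, 293 and 602 FPKM in osteoblasts replicates 2 and 3 but to no more than 1.09 FPKM in the hemoglobin-poor libraries, where *Tnnt3*, *Tnnc2* and *Pvalb* were listed at 0, and their part in *Ankrd1* was not tested.

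**Figure D5:**
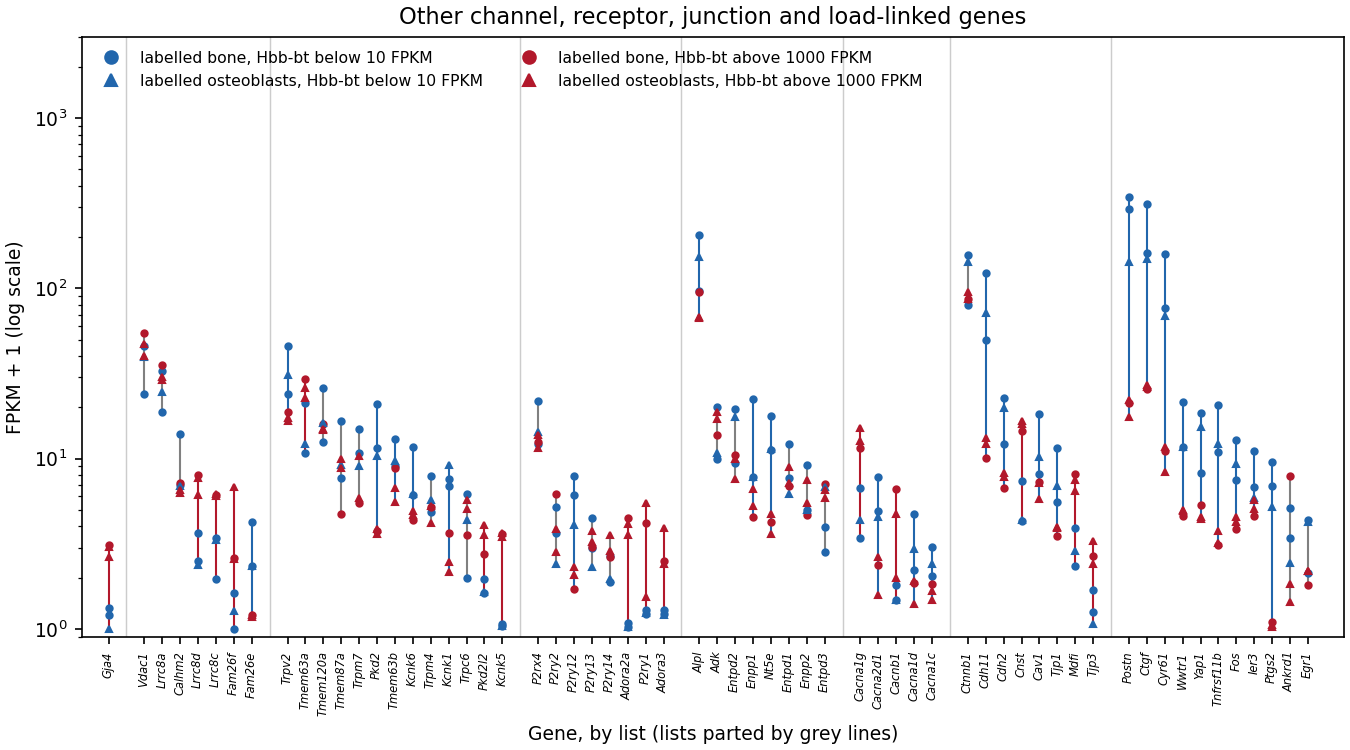
FPKM + 1 (log axis) of genes of the 8 lists that reached the filter, without a connexin that is not reported here, with 1 point per library, colours and shapes for label and *Hbb-bt* level, and a line over each gene's range in blue where all hemoglobin-poor libraries are higher, red where all hemoglobin-rich ones are, and grey where they overlap. Lists run from left to right in the order of the text, and 9 of the 11 load- and YAP-linked genes at the right have blue lines. Of all genes tested 16.9% had that arrangement.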

How the data were processed

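RNA-seq libraries from 3 bone and 3 osteoblast samples were analysed by their deposited labels. Total RNA libraries (TruSeq RNA v2, which does not mark strand) were read as 75 bp pairs and aligned by the authors to GRCm38 with HISAT2 2.0.5. SAMtools 1.7 and StringTie 1.3.3 are named in the submitters' processing notes, and the annotation is not given in the sources used here. The authors deposited FPKM, TPM and signal as mean read coverage for each feature, and no counts. Features without a name drop out of analyses by name.

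Rows with the same gene name were summed. Depth was read from the commonest value that coverage divided by FPKM took in a library. Labels were compared with limma 3.58.1 (R 4.3.3, eBayes with a trend) on log2(FPKM + 1) for genes whose mean FPKM reached 1, with Benjamini-Hochberg adjustment over all genes tested. This understates the change of low genes. *Piezo2* and the unnamed *Pkd1* feature had exact permutation tests. p-values measure only the spread between these libraries, and in the fit with the *Hbb-bt* term that spread was pooled over genes. The limma step was also run on simulated data with independent noise of a smaller spread than the median SD of 0.59 here (log2 scale). That run checks the code and does not show what limma could find in these libraries. Other steps used Python 3.11.15, pandas 2.3.3, numpy 2.4.6, scipy 1.17.1 and matplotlib 3.10.9.

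The members and lists were chosen with earlier results of these data known. Named genes are the members, up to 5 genes of highest mean FPKM with at least 1 FPKM in every library from each list, the 3 genes most like each member, and markers. *Pkd2*, *Gja4*, *Ankrd1* and its co-called genes, the ratios, and the genes of the closing observations were chosen after their values were seen. List genes were looked up by symbol, then by unambiguous RefSeq synonym, and some are not reported here by name. Alternatives were another pseudocount (0.1), filters (0.1 or none), TPM, 3 rescalings, quantile normalization, no trend, the replicate block, the highest row per name, and each library left out. The *Hbb-bt* term, coverage per Gb, and rescaled values for lists were added after seeing the data.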

Additional observations from a re-analysis of the deposited data

How the results depend on the processing

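Of 106 values of members under settings other than leaving out a library, 92 kept their direction, 14 reversed and 0 were called. The filters, the fit without a trend, the replicate block and the highest row per name cannot change a member's difference. Many of the 92 were therefore fixed in advance. *Kcnk2*, at 0.04, became -0.054 with a pseudocount of 0.1, -0.017 with TPM, -0.013 and -0.053 scaled to named genes without and with hemoglobin, mitochondrial and small RNA genes left out of the sum, and -0.15 with quantile normalization. *P2rx7*, at 0.02, became -0.060, -0.15, -0.18, -0.063 and -0.11 with TPM, both named-gene scalings, the 75th percentile and quantile normalization, and -0.21 as coverage per Gb. With the *Hbb-bt* term *Gja1* was 0.059, *Panx3* 0.22 and *Piezo1* 0.080, and 8 genes were called higher and 8 lower, 1 of them on the pathway lists. A replicate block in limma gave 46 higher and 3 lower genes, 0 of them members. Deviations from label means correlated at 0.84, -0.75 and 0.83 for libraries numbered 1, 2 and 3 over 12112 genes. Over all pairs of a bone and an osteoblast library, those of like *Hbb-bt* level gave 0.80 to 0.84. Those of unlike level gave -0.91 to -0.72. The sign followed the *Hbb-bt* level, so these values cannot show whether equal numbers mark a shared mouse. Bone replicate 1 also correlated best with its own number, while osteoblasts replicate 2 did so with bone replicate 3 (0.83). Leaving out 1 library gave 0 to 262 genes higher and 0 to 38 lower, the most without osteoblasts replicate 1, and without bone replicate 3 66 and 11. It moved *Gja1* from -0.62 to 0.16, *Gjc1* from -0.31 to 0.20, *Panx1* from -0.51 to 0.18, *Panx3* from -0.98 to 0.083, *Piezo1* from -0.71 to 0.12, *Kcnk2* from -0.54 to 0.40, *Trpv4* from -1.66 to -0.56 and *P2rx7* from -0.32 to 0.45, with 0 calls. It left 5 to 6 members higher in every hemoglobin-poor library and 0 to 2 in every hemoglobin-rich one. The shares over all genes with 1 library left out are not given here. These counts therefore cannot be set against the 16.9% and 38.4% found with all 6 libraries. The cause of the changes on leaving out a library was not tested. Without counts, an interval for a single FPKM could not be had.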

Other observations

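Among the other channel and receptor genes, some were near 0 in the hemoglobin-poor libraries. *Kcnk5*, a potassium channel of the TREK-1 superfamily, was 0.0439 to 0.0711 FPKM in those libraries and 2.46 to 2.65 FPKM in the hemoglobin-rich ones. The adenosine receptor gene *Adora2a* was 0.0259 to 0.0813 and 2.55 to 3.501 FPKM. *P2ry12*, an ADP receptor, had the opposite arrangement, at 3.07 to 6.89 and 0.711 to 1.2999 FPKM. So did *Ptgs2*, which encodes the cyclooxygenase induced by load in bone, at 4.24 to 8.51 and 0.0335 to 0.101 FPKM, the latter below what 3 read pairs on 1 kb give. All 8 named neutrophil markers and 6 of 6 named megakaryocyte markers were higher in each hemoglobin-rich library, at summed FPKM of 14919 to 18094 and 652 to 826 against at most 6.25 and 120, and *Elane* and *Ppbp* were listed at 0 in the 3 hemoglobin-poor ones. Their part in these values was not tested.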
